A study of Mus musculus with 16 samples.

Results

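Chloride, bicarbonate and water transport in small intestinal organoids was followed through 9 genes: Clca3b, Clca4a and Clca4b of the CLCA family, the chloride channel gene Cftr, the loading transporters Slc12a2 and Slc4a4, the exchangers Slc26a3 and Slc9a3, and the water channel gene Aqp1. They are 9 of 49585 genes in the count table, and all 9 were among the 12559 genes with enough counts to be tested. The genes were selected on their IL-22 and genotype differences in these same 16 cultures, so those differences are given as a description and support nothing by themselves.

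The study asked how the autophagy gene Atg16l1 shapes the epithelial response to IL-22, a cytokine from lymphoid cells that acts on epithelium. Organoids were grown from crypts of Atg16l1 fl/fl mice, which carry loxP-flanked Atg16l1 alleles and no Cre, and of Atg16l1 ΔIEC mice, in which the same alleles are deleted by Cre under the villin promoter, active in intestinal epithelial cells. The mice were on a C57BL/6 background. Each genotype was left untreated or given recombinant murine IL-22 at 10 ng/ml, with 4 cultures in each of the 4 groups. By the organoid numbers in the labels, each genotype is represented by 2 lines, and each line by 2 untreated and 2 treated cultures. The cultures of a line are not separate animals, p-values over cultures measure the spread between these cultures, and a difference between genotypes cannot be told apart from a difference between 2 lines and 2 other lines. All groups grew from isolated crypts in the same medium with EGF, Noggin and R-spondin.

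Secretory epithelial cells take up chloride and bicarbonate across the basolateral membrane and release them through apical channels, and water follows. The surface epithelium absorbs sodium chloride through paired apical exchangers. CLCA proteins are secreted or membrane-bound regulators of calcium-activated chloride currents and of mucus, and are not themselves channels.

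The libraries held 2135000 to 5574860 counts on genes. Atg16l1 was at 31.6 to 51.8 CPM (counts scaled to library size with TMM factors) in the 8 fl/fl cultures and at 0.289 to 5.96 CPM in the 8 ΔIEC cultures. The 6 epithelial markers were measured in all groups, at summed levels of 5630 to 10100 CPM. None of 6 stromal markers and none of 6 endothelial and erythroid markers passed the filter on low counts, and their summed levels were at most 3.94 and 2.72 CPM. A summed level of 10 enterocyte markers was 4960 to 6090 CPM in untreated and 1470 to 1840 CPM in IL-22-treated fl/fl cultures, and 4900 to 6640 against 1520 to 2920 CPM in ΔIEC cultures. In bulk cultures, fewer cells of a type and less RNA per cell cannot be told apart.

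**Figure D1:**
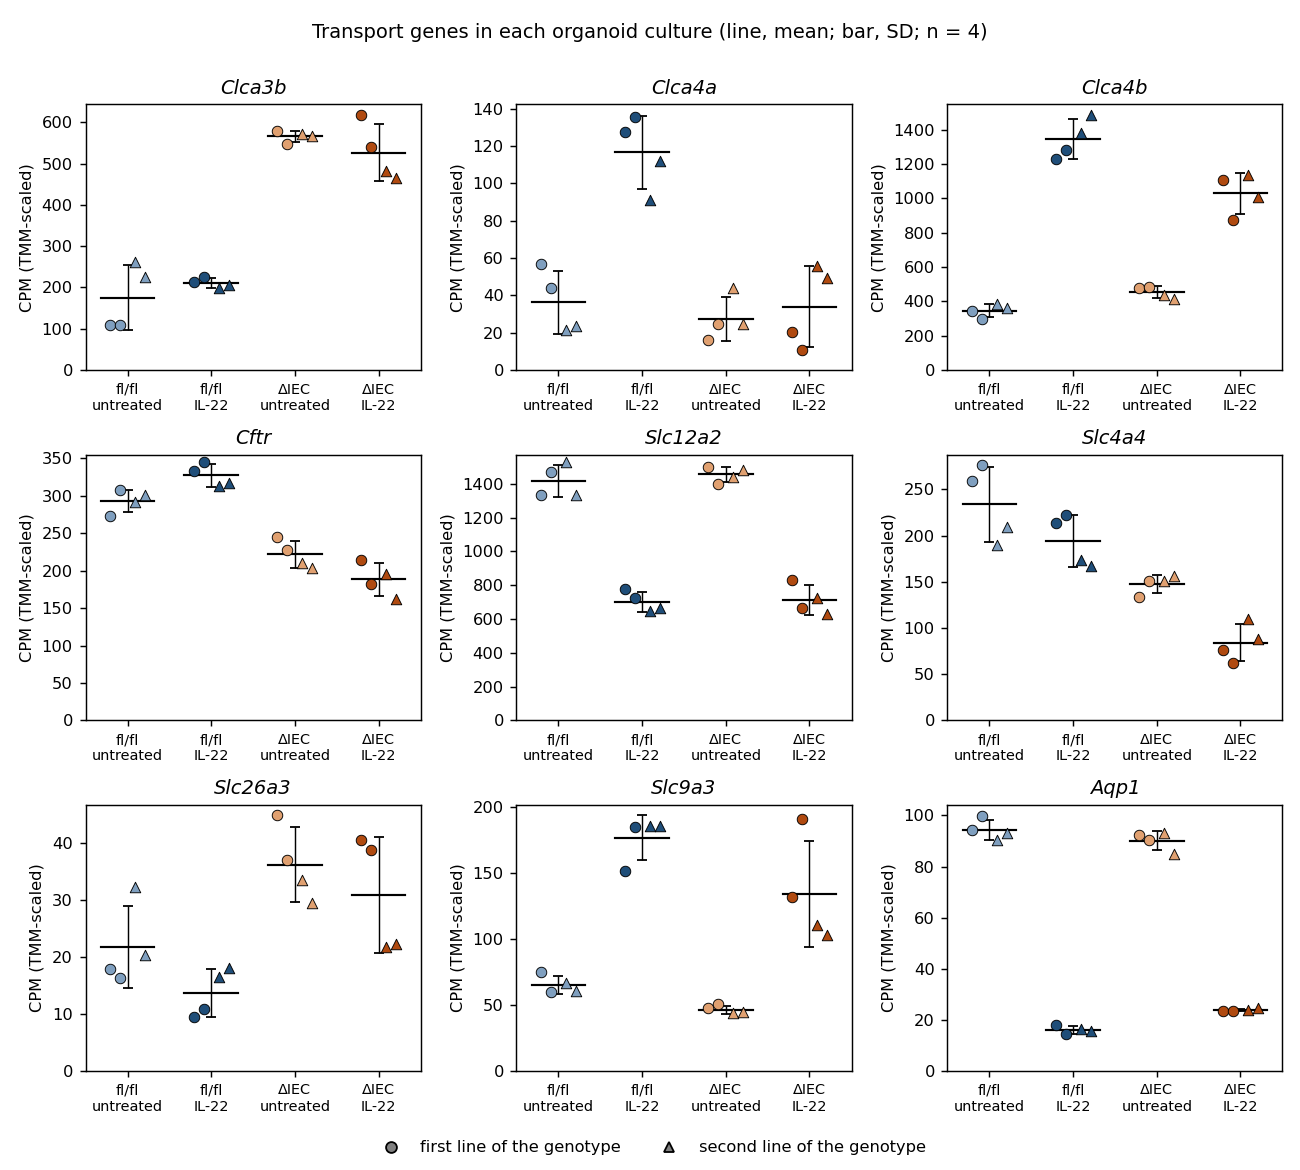
CPM of each of the 9 genes in each culture (y axis, from 0) by group (x axis); circles are the first and triangles the second organoid line of the genotype, horizontal lines the mean and bars the SD of 4 cultures. Aqp1 and Slc12a2 cultures separated by treatment with no overlap, while the untreated fl/fl cultures of Clca3b separated by line.

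The 3 CLCA genes lie on the minus strand of chromosome 3 (GRCm38), Clca3b (ENSMUSG00000037033.9) at chr3:144822623-144849357, Clca4b at chr3:144910921-144932529 and Clca4a at chr3:144952480-144975045. Clca4a and Clca4b are close copies, with coding sequences of 2775 bases each that differ at 110 positions (96.0% identical). The transcripts compared, 3004 and 2997 bases, shared 619 of the 2955 windows of 50 bases in Clca4a (20.95%), and the pseudogene Clca4c-ps between Clca3b and Clca4b held 697 of them (23.59%). Clca4a also overlaps the annotated genes Gm16233 and Gm35066 on the other strand. The part of the coding sequence where the copies differ most is shown because counts of Clca4a and Clca4b can be told apart only at such bases. It is a window of 150 bases in exon 14 with 16 differing bases, at chr3:144952682-144952831 in Clca4a and chr3:144911117-144911266 in Clca4b, both on the minus strand, with capitals marking the bases that differ.
Clca4a: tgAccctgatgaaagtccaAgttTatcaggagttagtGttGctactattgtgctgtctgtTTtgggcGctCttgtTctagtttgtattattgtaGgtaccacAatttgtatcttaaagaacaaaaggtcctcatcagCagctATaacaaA
Clca4b: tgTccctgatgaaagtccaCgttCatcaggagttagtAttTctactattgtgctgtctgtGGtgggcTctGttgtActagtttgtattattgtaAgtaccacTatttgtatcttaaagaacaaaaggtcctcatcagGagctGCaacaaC
The longest coding run that the copies share is 168 bases across exons 8 and 9, between chr3:144960644-144961930 in Clca4a and chr3:144919283-144921930 in Clca4b with the intron between them left out. Read pairs that lie wholly within it cannot be assigned to either gene.
Clca4a and Clca4b: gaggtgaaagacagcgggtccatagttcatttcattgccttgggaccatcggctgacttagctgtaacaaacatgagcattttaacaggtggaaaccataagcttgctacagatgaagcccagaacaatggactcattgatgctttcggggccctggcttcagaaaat
Of all deposited counts, those on no gene included, 21.46 to 24.22% were not uniquely aligned and are in no gene count. Clca3b shared no window of 50 bases with Clca4a or Clca4b and 153 of its 3312 windows with Clca3a2 (4.62%).

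Clca4b rose with IL-22 in both genotypes. Its CPM was 342, 296, 382 and 362 in untreated fl/fl cultures and 1229, 1279, 1383 and 1487 after IL-22. In ΔIEC cultures it was 480.1, 486, 436 and 413 untreated and 1106, 872, 1135 and 1006 after IL-22. Every treated culture was above every untreated culture of its genotype. The log2 IL-22 difference was 1.96 (SE 0.099, 3.89-fold) in fl/fl and 1.18 (SE 0.097, 2.27-fold) in ΔIEC organoids. The genotypes traded places: Clca4b was 1.31-fold higher in untreated ΔIEC cultures (log2 0.39, SE 0.097) and 1.31-fold lower in IL-22-treated ones (log2 -0.39, SE 0.095), with no overlap of cultures in either comparison. The log2 IL-22 difference in ΔIEC minus that in fl/fl organoids was -0.78 (SE 0.14). It missed the threshold, an adjusted p of 0.01 in the edgeR quasi-likelihood fit over all genes, and passed it with the organoid line as a replicate block (-0.78), with DESeq2 (-0.80), with limma-voom (-0.80) and with no filter on low counts. It did not pass with the cultures of a line summed, nor in any of the 20 fits that left out a culture or a line. The untreated genotype difference did not pass with limma-voom and an estimated correlation of cultures of a line (0.41), nor when cultures of a line were summed, nor without untreated fl/fl replicate 1, 2 or 4, untreated ΔIEC replicate 1, 2 or 3, treated ΔIEC replicate 4, the first fl/fl line or either ΔIEC line, where it lay between 0.28 and 0.48. The treated one did not pass with lines summed, nor in a fit of the 2 groups compared alone (-0.39), nor without treated fl/fl replicate 3 or 4, treated ΔIEC replicate 2 or 4, the second fl/fl line or either ΔIEC line, where it lay between -0.44 and -0.29.

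Clca4a, the close copy, rose past the threshold in fl/fl organoids. In fl/fl cultures it was at 56.7, 43.9, 21.3 and 23.8 CPM untreated and at 128, 135, 91.2 and 112 CPM with IL-22. In ΔIEC cultures it was at 16.3, 24.9, 43.8 and 24.9 CPM untreated and at 20.2, 10.8, 55.9 and 49.2 CPM with IL-22. The treated fl/fl cultures stood above all other cultures, and the ΔIEC groups overlapped each other. The log2 IL-22 difference was 1.64 (SE 0.35) in fl/fl, past the threshold, and 0.37 (SE 0.4) in ΔIEC, not past it. The ΔIEC minus fl/fl difference of these values was -1.27 (SE 0.53), not past the threshold, and passed it at -1.5 with the organoid line as a replicate block, and with no filter on low counts. Without the second fl/fl line the rise in fl/fl was 1.39 and did not pass. The untreated genotype difference was -0.48 (SE 0.39), not past the threshold, was 0.21 without the first fl/fl line, and passed with no filter on low counts (-0.47). With IL-22 the ΔIEC cultures were 3.37-fold lower than fl/fl (log2 -1.75, SE 0.35), which was -1.15 and not past the threshold without the first ΔIEC line. Neither call passed with the cultures of a line summed.

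Clca3b differed by genotype more than any other of the 9 genes in untreated cultures. Untreated fl/fl cultures had 108, 109, 261 and 224 CPM and untreated ΔIEC cultures 579.6, 549, 572 and 566 CPM. With IL-22 the values were 214, 225, 199 and 206 CPM in fl/fl and 617, 541, 481 and 465 CPM in ΔIEC cultures. All ΔIEC cultures were above all fl/fl cultures. The log2 genotype difference was 1.70 (SE 0.20, 3.26-fold) untreated and 1.32 (SE 0.20, 2.49-fold) with IL-22, and neither passed the threshold with the cultures of a line summed. Beside it, 3 of 5 stem cell markers were higher in ΔIEC cultures in each condition, and 1 was lower with IL-22. The 5 summed were at 909 to 1070 CPM in untreated ΔIEC and 384 to 611 CPM in untreated fl/fl cultures. With IL-22 they were at 355 to 495 and 230 to 267 CPM. Enteroendocrine markers were lower, 2 of 5 untreated and 3 of 5 with IL-22, as were Paneth and goblet cell markers, whose values stand beside Cftr. Their part in the result was not tested.

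The IL-22 difference of Clca3b in fl/fl organoids turned on the line. The pooled value was 0.28 (SE 0.20) on the log2 scale. In the first fl/fl line the mean rose from 108 to 219 CPM, and in the second it was 243 CPM untreated and 203 CPM with IL-22, and within each line treated and untreated cultures did not overlap. Without the second line the fl/fl value was 1.02 and passed the threshold, and without the first it was -0.23. The second line's log2 IL-22 change was 1.27 below the first line's (log2 -1.27, SE 0.13, adjusted p = 1.17e-06, edgeR quasi-likelihood fit of 8 line-by-treatment means, added after the data were seen). Only 2 of 12559 genes passed this test in fl/fl organoids (0.0159%), Clca3b and Anxa10, the latter named after its values were seen. In ΔIEC organoids 14 genes passed (0.111%), none of them among the 9. The cultures of the 2 lines stood far apart when untreated and at 199 to 225 CPM after IL-22. Clca1, the goblet cell member of the family, also split by line in untreated fl/fl cultures, at 114 and 94.2 CPM in the first and 26.3 and 24.3 CPM in the second line, opposite in direction to Clca3b.

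**Figure D2:**
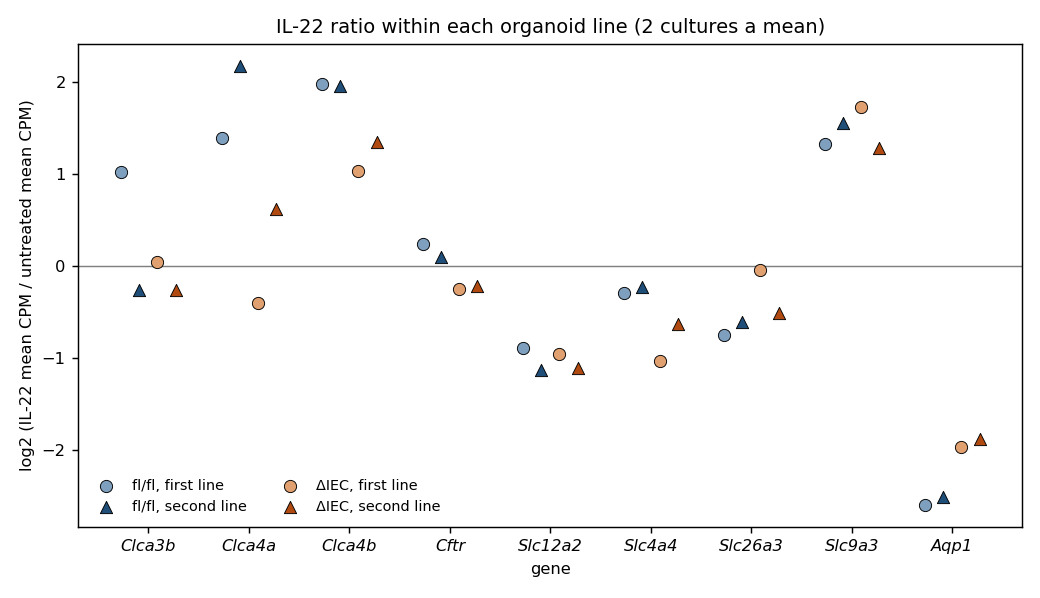
Log2 ratio of the mean IL-22-treated to the mean untreated CPM (y axis) of the 9 genes (x axis) in each of the 4 organoid lines, 2 cultures per mean. The 2 fl/fl lines differ in sign for Clca3b, the 2 ΔIEC lines for Clca4a, while the 4 lines lie between -2.60 and -1.88 for Aqp1 and between -1.13 and -0.90 for Slc12a2.

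The rest of the CLCA family was low or did not change past the threshold, with 1 exception. Clca3a2 was at 1.79 to 4.08 CPM in untreated fl/fl and at 4.83 to 7.14 CPM in untreated ΔIEC cultures (log2 1.2, SE 0.27, adjusted p = 0.00414, edgeR). With limma-voom this call was lost (adjusted p = 0.0154 with an estimated correlation). Its transcript is 96.4% identical to that of Clca3a1, so the division of reads between them is uncertain. Clca3a1 ranged from 1.40 to 5.09 CPM over all cultures, with adjusted p-values (edgeR) of 0.225 to 0.922 in the 4 comparisons. Clca1 fell short of the threshold in every comparison, with a log2 IL-22 difference of -0.82 (SE 0.41) in fl/fl and -1.28 (SE 0.47) in ΔIEC cultures. Clca2 had at most 2 counts in any culture and was not tested.

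Cftr (chr6:18170687-18322768, plus strand), the cAMP-gated apical channel for chloride and bicarbonate, was lower in ΔIEC organoids under both conditions. Its level was 273, 307, 291 and 301 CPM in untreated fl/fl and 244, 228, 211 and 203 CPM in untreated ΔIEC cultures. With IL-22 it was 333, 345, 313 and 317 CPM in fl/fl and 215, 182, 195 and 162 CPM in ΔIEC cultures. The genotypes did not overlap in either condition. The log2 genotype difference was -0.40 (SE 0.084, 1.32-fold lower) untreated and -0.80 (SE 0.084, 1.74-fold lower) with IL-22. Of the genotype differences of the 9 genes, the IL-22-treated one of Cftr alone passed the threshold when the cultures of a line were summed. The untreated value lay between -0.42 and -0.31 and did not pass without untreated fl/fl replicate 2, untreated ΔIEC replicate 3 or 4, either fl/fl line or the second ΔIEC line. The IL-22 differences were small, 0.16 (SE 0.083) in fl/fl, where all 4 treated cultures were above the untreated ones, and -0.24 (SE 0.085) in ΔIEC. The latter did not pass the threshold, and passed it with the organoid line as a replicate block (-0.24) and without treated ΔIEC replicate 1 (-0.31). Beside these genotype differences, 3 of 6 Paneth cell markers were lower in ΔIEC cultures untreated and 5 of 6 with IL-22, at summed levels of 5590 to 7930 against 3150 to 4130 CPM and of 7010 to 9430 against 3880 to 4600 CPM, and 3 and 4 of 6 goblet cell markers were lower. Their part in the result was not tested. Cftr overlaps the annotated genes Gm15595 and Gm15592.

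Slc12a2 (chromosome 18, 57878678 to 57946821, plus strand) encodes NKCC1, the basolateral cotransporter that loads secretory cells with chloride, and it fell with IL-22 in both genotypes. Untreated cultures had 1333, 1470, 1526 and 1335 CPM in fl/fl and 1501, 1400, 1441 and 1482 CPM in ΔIEC. Treated cultures had 778, 722, 646 and 662 CPM in fl/fl and 831, 665, 724 and 628 CPM in ΔIEC. All treated cultures were below all untreated cultures, and the genotypes overlapped. The log2 difference was -1.01 (SE 0.087, 2.02-fold lower) in fl/fl and -1.03 (SE 0.087, 2.05-fold lower) in ΔIEC organoids. The genotype differences were 0.04 (SE 0.086) untreated and 0.02 (SE 0.086) with IL-22, and the IL-22 falls differed between genotypes by -0.02 (SE 0.12). Beside it, 2 of 5 stem cell markers fell past the threshold in fl/fl and 4 of 5 in ΔIEC cultures, and their summed level was 384 to 611 and 909 to 1070 CPM untreated against 230 to 267 and 355 to 495 CPM with IL-22. Of 10 enterocyte markers, 8 fell in fl/fl and 5 in ΔIEC cultures, and 0 rose past the threshold. Their part in the result was not tested.

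Slc4a4 (chr5:88886818-89239653, plus strand), the electrogenic sodium bicarbonate cotransporter NBCe1, was lower in ΔIEC organoids and was lowest after IL-22. Untreated cultures had 259, 277, 190 and 209.7 CPM in fl/fl and 134, 151, 151 and 156 CPM in ΔIEC. With IL-22 the values were 213, 222, 174 and 167 CPM in fl/fl and 76.6, 61.9, 110.0 and 88.0 CPM in ΔIEC cultures. The ΔIEC cultures did not overlap the fl/fl cultures of either condition. The log2 genotype difference was -0.67 (SE 0.14, 1.59-fold lower) untreated and -1.2 (SE 0.15, 2.30-fold lower) with IL-22, and neither passed the threshold with lines summed. The untreated value lay between -0.62 and -0.45 and did not pass without untreated fl/fl replicate 1 or 2, untreated ΔIEC replicate 1, or the first line of either genotype. Treated ΔIEC cultures were 1.75-fold below untreated ones (log2 -0.81, SE 0.15), which was -0.63 and not past the threshold without the first ΔIEC line. With the cultures of a line summed that fall was -0.82 and did not pass either. The fl/fl value of -0.27 (SE 0.14) and the ΔIEC minus fl/fl difference of -0.53 (SE 0.20) did not pass, and both passed with the organoid line as a replicate block, at -0.27 and -0.57.

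Aqp1 (chr6:55336432-55348555, plus strand), which encodes a water channel, had the largest IL-22 difference of the 9 genes. It was at 94.4, 99.8, 90.2 and 93.1 CPM in untreated fl/fl and at 17.8, 14.3, 16.3 and 15.6 CPM in treated fl/fl cultures. The ΔIEC cultures had 92.4, 90.3, 93.3 and 84.7 CPM untreated and 23.5, 23.3, 23.9 and 24.6 CPM with IL-22. Cultures of a group lay close together, and the treated fl/fl cultures were all below the treated ΔIEC cultures. The fall was 5.94-fold in fl/fl (log2 -2.57, SE 0.085) and 3.78-fold in ΔIEC (log2 -1.92, SE 0.082). Untreated genotypes differed by -0.07 (SE 0.072) and treated ones by 0.58 (SE 0.096, 1.5-fold higher in ΔIEC). With counts thinned to the smallest library that value was 0.44 and did not pass, nor did it with lines summed. Of the enterocyte markers, 4 of 10 were also higher in treated ΔIEC cultures. Aqp1 is known from endothelial and red blood cells, whose 6 markers were near 0 here and 3 of them at 0 in every culture. Beside the fall of Aqp1, 8 of 10 enterocyte markers fell past the threshold in fl/fl and 5 of 10 in ΔIEC cultures, with median log2 differences of -1.92 and -1.48. Of 5 stem cell markers, 2 fell in fl/fl and 4 in ΔIEC cultures, and 0 rose past the threshold. Their part in the result was not tested.

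Slc9a3 (chr13:74121457-74169442, plus strand) encodes NHE3, the apical sodium-proton exchanger of absorbing cells, and rose with IL-22 in both genotypes. Its level was 74.5, 59.7, 66.2 and 60.7 CPM in untreated and 151, 185, 185 and 185 CPM in treated fl/fl cultures. In ΔIEC cultures it was 47.4, 50.2, 43.4 and 44.4 CPM untreated and 132, 191, 110.3 and 103 CPM with IL-22. No treated culture overlapped an untreated one. The log2 difference was 1.44 (SE 0.15, 2.71-fold) in fl/fl and 1.52 (SE 0.15, 2.87-fold) in ΔIEC organoids. Beside this rise and that of Clca4b, 2 of 3 tested genes of a list of ductal and Brunner gland markers rose in each genotype. That list holds Krt19, Sox9, Muc6, Tff2 and Krt7, and which cells their RNA came from was not tested. Its summed level was 1350 to 1830 against 2580 to 2970 CPM in fl/fl and 1240 to 1710 against 1700 to 2880 CPM in ΔIEC cultures. Of the epithelial markers, 3 of 6 rose in fl/fl, while the enterocyte markers fell. Their part in the result was not tested. The genotype differences were -0.48 (SE 0.16) untreated, with all ΔIEC cultures lower, and -0.40 (SE 0.14) with IL-22, neither past the threshold. Without replicate 2 of the treated ΔIEC cultures they were -0.49 and -0.63 and both passed, and without the first ΔIEC line the latter was -0.74 and passed. With no filter on low counts both passed, at -0.46 and -0.38, and the untreated value passed at -0.47 in a fit of the 2 groups compared alone.

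Slc26a3 (chr12:31390871-31473917, plus strand), the apical chloride-bicarbonate exchanger that works beside NHE3, did not follow Slc9a3. It was at 17.8, 16.3, 32.2 and 20.3 CPM in untreated and 9.50, 10.8, 16.5 and 18.0 CPM in treated fl/fl cultures. In ΔIEC cultures it was at 44.8, 36.9, 33.4 and 29.5 CPM untreated and at 40.5, 38.6, 21.8 and 22.3 CPM with IL-22. The log2 IL-22 difference was -0.59 (SE 0.26) in fl/fl and -0.26 (SE 0.23) in ΔIEC, and neither passed the threshold. The fl/fl value passed with the organoid line as a replicate block (-0.63) and with no filter on low counts (-0.58). Slc26a3 was 2.19-fold higher in treated ΔIEC than in treated fl/fl cultures (log2 1.13, SE 0.25), which lay between 0.65 and 0.99 and did not pass without treated fl/fl replicate 2, treated ΔIEC replicate 2 or the first line of either genotype. With the cultures of a line summed that difference was 1.14 and did not pass either. The untreated value was 0.80 (SE 0.24), not past the threshold, and passed without untreated fl/fl replicate 3 (1.01) or the second fl/fl line (1.11) and with no filter on low counts (0.83).

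**Figure D3:**
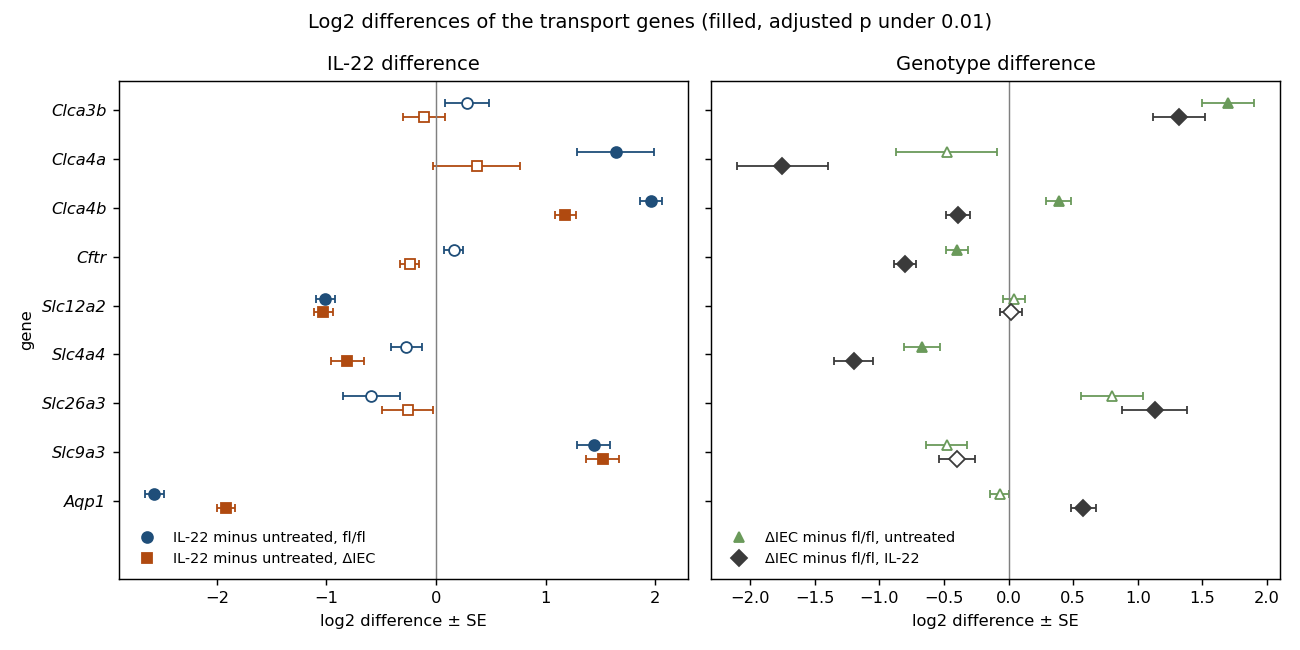
Log2 differences with SE (x axis) of the 9 genes (y axis), IL-22-treated minus untreated on the left and ΔIEC minus fl/fl on the right; filled symbols passed an adjusted p-value of 0.01 over all genes. Aqp1 had -2.57 in fl/fl and -1.92 in ΔIEC organoids, and Clca4b changed the sign of its genotype difference, from 0.39 untreated to -0.39 with IL-22.

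Counted over the 9 genes, 5 passed the threshold for IL-22 in fl/fl organoids, 3 higher and 2 lower, beside 20.8% of all tested genes (10.6% higher and 10.2% lower). For IL-22 in ΔIEC organoids 2 were higher and 3 lower, beside 17.5% of all genes (9.83% and 7.65%). For the genotype in untreated cultures 2 were higher and 2 lower in ΔIEC, beside 9.76% (3.78% and 5.98%), and with IL-22 3 were higher and 4 lower, beside 19.8% (9.91% and 9.84%). Since the genes were chosen with these comparisons known, nothing is read from the counts. The cultures of the 2 groups did not overlap for 6, 5, 5 and 7 of the 9 genes in these 4 comparisons, beside 30.9%, 27.3%, 23.3% and 29.6% of all tested genes. The interaction of genotype and treatment passed for 0 of the 9 genes with edgeR and for 1, Clca4b, with DESeq2 and with limma-voom. Over all genes 0.0159% passed with edgeR. The shares of all genes passing with DESeq2 and limma-voom were not counted, so nothing is read from those calls. An unadjusted p under 0.05 was reached by 5 of the 9 genes with edgeR, beside 912 of all 12559 tested genes.

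Differences between the 2 lines of a genotype were not used to choose the genes and were tested with the line as a term, after the data were seen. In fl/fl organoids 11% of all tested genes differed between lines past the threshold, and 3 of the 9 did. Clca4a was 1.54-fold lower in the second line (log2 -0.63, SE 0.15, adjusted p = 0.00412, edgeR) and Slc4a4 1.31-fold lower (log2 -0.39, SE 0.078, adjusted p = 0.000576, edgeR). Slc26a3 was 1.56-fold higher in the second fl/fl line (log2 0.64, SE 0.15, adjusted p = 0.00365, edgeR). In ΔIEC organoids 3.98% of genes differed, and again 3 of the 9. Clca4a was 2.41-fold higher in the second ΔIEC line (log2 1.27, SE 0.21, adjusted p = 0.000116, edgeR). Slc26a3 was 1.52-fold lower (log2 -0.60, SE 0.13, adjusted p = 0.00235, edgeR) and Slc9a3 1.36-fold lower (log2 -0.45, SE 0.11, adjusted p = 0.0095, edgeR). Aqp1, Cftr, Slc12a2 and Clca4b did not differ between lines past the threshold in either genotype, with log2 values between -0.17 and 0.21. Nor did Clca3b, at 0.48 (SE 0.14) in fl/fl and -0.14 (SE 0.13) in ΔIEC organoids, values taken over both treatments.

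Per kilobase of exon (RPKM, from CPM and the annotated exon length), Slc12a2 and Clca4b led the untreated fl/fl cultures at 129.7 ± 8.94 and 115 ± 12.2 RPKM (SD, n = 4). Clca3b followed at 52.2 ± 23.5, Cftr at 37.7 ± 1.94 and Aqp1 at 35.9 ± 1.53 RPKM. Slc4a4 stood at 21.6 ± 3.76, Clca4a at 12.1 ± 5.62, Slc9a3 at 11.9 ± 1.23 and Slc26a3 at 3.40 ± 1.13 RPKM. Slc12a2 and Clca4b, Clca3b, Cftr and Aqp1, and Clca4a and Slc9a3 did not differ beyond their SDs. In treated fl/fl cultures Clca4b stood first at 449 ± 38.2 RPKM, with Slc12a2 at 64.3 ± 5.50 and Clca3b at 62.8 ± 3.32 RPKM next, and Aqp1 had dropped to 6.09 ± 0.566 RPKM. In untreated ΔIEC cultures Clca3b stood first at 169 ± 3.89 RPKM, ahead of Clca4b at 151 ± 11.8 RPKM. In treated ΔIEC cultures Clca4b was at 344 ± 39.6 and Clca3b at 157 ± 20.5 RPKM.

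The wider machinery was read from 118 genes in 10 lists drawn up from general knowledge, the 9 genes included, of which 77 passed the filter on low counts and 41 did not. Without the 9 genes, 68 were tested. Of these 7 rose and 8 fell with IL-22 in fl/fl (22.1%, beside 20.8% of all tested genes), and 8 rose and 9 fell in ΔIEC organoids (25%, beside 17.5%). With the organoid line as a replicate block, 32 of all 77 genes passed for IL-22 in fl/fl in place of 20. The share of all tested genes passing in that fit was not counted, so nothing about the lists is read from it. In untreated cultures 2 were higher and 10 lower in ΔIEC organoids (17.6%, beside 9.76%), and with IL-22 2 were higher and 14 lower (23.5%, beside 19.8%). The median log2 differences of the 68 genes were -0.08, -0.12, -0.16 and -0.12, beside -0.05, -0.01, -0.02 and 0.01 over all tested genes. For the interaction 0 of the 68 passed with edgeR, and 0 passed with DESeq2 or limma-voom, whose shares over all genes were not counted. With edgeR 3 of the 68 had an unadjusted p under 0.05, beside 912 of all 12559 tested genes.

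Among the exchangers, Slc26a6, an apical anion exchanger, rose with IL-22 by 1.62-fold in fl/fl (log2 0.70, SE 0.10, adjusted p = 2.99e-05, edgeR) and 1.59-fold in ΔIEC organoids (log2 0.67, SE 0.11, adjusted p = 7.17e-05, edgeR). It was lower in ΔIEC than in fl/fl organoids, 1.54-fold untreated (adjusted p = 0.000494, edgeR) and 1.57-fold with IL-22 (adjusted p = 9.89e-05, edgeR). The sulfate transporter gene Slc26a2 fell with IL-22 in fl/fl (log2 -0.50, adjusted p = 0.000507, edgeR) and ΔIEC organoids (log2 -0.78, adjusted p = 7.99e-06, edgeR) and was lower in treated ΔIEC cultures (log2 -0.56). Slc4a2, a basolateral anion exchanger, rose in fl/fl organoids (log2 0.36, adjusted p = 0.00554, edgeR). Slc4a5, a sodium bicarbonate cotransporter, fell 3.80-fold in fl/fl (log2 -1.92, adjusted p = 1.29e-06, edgeR) and 3.07-fold in ΔIEC organoids (log2 -1.62, adjusted p = 2.49e-05, edgeR).

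The cation-chloride cotransporter Slc12a7 rose with IL-22 in both genotypes (log2 0.39 and 0.36) and Slc12a8 fell (log2 -0.71 in each), and both were lower in ΔIEC organoids, at log2 values of -0.40 and -0.50 untreated and -0.43 and -0.49 with IL-22. With limma-voom the untreated call of Slc12a7 was lost (adjusted p = 0.0207 with an estimated correlation), as was the IL-22-treated call of Slc12a8 (adjusted p = 0.0106 with an estimated correlation). Of the potassium channel subunits that set the driving force for chloride exit, Kcne3 rose with IL-22 (log2 0.80, adjusted p = 7.35e-08 in fl/fl, and 0.78, adjusted p = 6.78e-08 in ΔIEC, edgeR). Unlike most called genes of the lists, Kcne3 was higher in ΔIEC organoids, with 93.6 to 103 against 143 to 151 CPM untreated (log2 0.58, adjusted p = 3.35e-05, edgeR) and 0.56 with IL-22. Kcnk1 rose in fl/fl (log2 0.33), and in ΔIEC Fxyd3, a regulator of the sodium pump, rose (log2 0.92) and Kcnq1, the partner of Kcne3, fell (log2 -0.35, adjusted p = 0.00996, edgeR). Atp1b1, a subunit of the sodium pump that drives this transport, was lower in ΔIEC organoids, with a log2 value of -0.59 untreated (adjusted p = 1.71e-05, edgeR) and -0.59 with IL-22 (adjusted p = 7.51e-06, edgeR). Clcn3 rose by 0.37 in fl/fl and 0.35 in ΔIEC, and Lrrc8d by 0.33 in ΔIEC organoids. Of the sodium-proton exchangers, Slc9a2 was lower in treated ΔIEC cultures (log2 -0.62, adjusted p = 0.00186, edgeR).

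Of 6 tested genes of the carbonic anhydrase family, whose active members make bicarbonate, 0 passed for IL-22 with edgeR in either genotype. With DESeq2 0 passed, and with limma-voom 1 in fl/fl and 0 in ΔIEC organoids. With edgeR, 1 in fl/fl and 2 in ΔIEC had an unadjusted p under 0.05, beside 5265 and 4827 of 12559 tested genes. Car9 was lower in ΔIEC organoids (log2 -0.68 untreated, adjusted p = 1.13e-05, and -0.78 with IL-22, adjusted p = 1.3e-06, edgeR) and Car8, a member of the family without enzyme activity, in untreated ones (log2 -1.0, adjusted p = 0.000191, edgeR). Among regulators, Prkg2, the membrane-bound cGMP kinase that phosphorylates CFTR and NHE3, rose with IL-22 (log2 0.55, adjusted p = 0.000409 in fl/fl, and 0.97, adjusted p = 7.46e-07 in ΔIEC, edgeR) and was higher in treated ΔIEC cultures (log2 0.44). Its upstream receptor gene Gucy2c rose by 0.33 in ΔIEC organoids, and the receptor's ligand gene Guca2b, uroguanylin, fell by 0.66 in fl/fl and by 0.56 in ΔIEC organoids on the log2 scale. Guca2a, guanylin, was lower in ΔIEC organoids (log2 -1.26 untreated, adjusted p = 7.08e-05, and -1.13 with IL-22, adjusted p = 0.000132, edgeR). The VIP receptor Vipr1 fell with IL-22 in fl/fl (log2 -0.88, adjusted p = 2.52e-05, edgeR) and ΔIEC organoids (log2 -0.53, adjusted p = 0.0034, edgeR). Wnk4 fell in ΔIEC organoids (log2 -0.84), and Ahcyl1 fell in fl/fl (log2 -0.34) and ΔIEC organoids (log2 -0.43). Ahcyl1, also called IRBIT, was lower in ΔIEC cultures both untreated (log2 -0.42) and with IL-22 (log2 -0.50). Of these genotype differences over all lists, 0 of 77 passed in untreated cultures and 2 of 77 with IL-22 when the cultures of a line were summed. The share of all tested genes passing in that fit was not counted.

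Of 11 aquaporins, 4 were tested. Aqp11 fell with IL-22 in fl/fl (log2 -0.75, SE 0.14, adjusted p = 0.000416, edgeR) and ΔIEC organoids (log2 -0.65, SE 0.15, adjusted p = 0.00255, edgeR). Aqp4 stayed between 44.6 and 84.4 CPM in all cultures, with adjusted p-values of 0.2 to 0.865 (edgeR). Aqp5 had 0 to 4 counts in every ΔIEC culture, and in untreated fl/fl cultures 12.0 and 17.1 CPM in the first and 1.36 and 3.75 CPM in the second line, with adjusted p-values (edgeR) of 0.00186 untreated and 0.00048 with IL-22 for the genotype. The untreated fl/fl and ΔIEC cultures overlapped, and with limma-voom the untreated call was lost (adjusted p = 0.0137 with an estimated correlation). Aqp2, Aqp3 and Aqp6 were at 0 in all 16 cultures, and Aqp7, Aqp8, Aqp9 and Aqp12 had at most 7 counts in any culture.

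**Figure D4:**
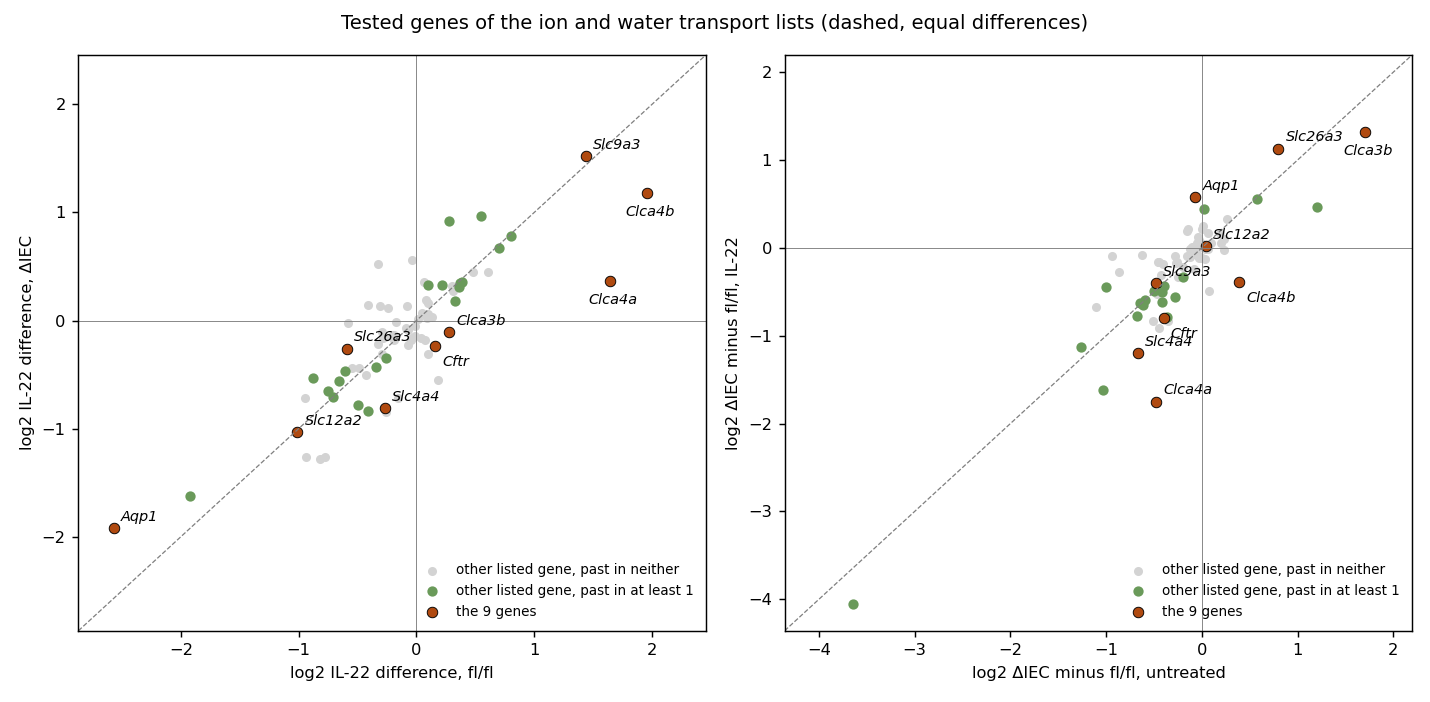
Log2 differences of the 77 tested genes of the 10 lists, IL-22 in fl/fl (x) against ΔIEC organoids (y) on the left and ΔIEC minus fl/fl in untreated (x) against treated cultures (y) on the right. Clca4a, at 1.64 in fl/fl and 0.37 in ΔIEC organoids, lies far below the dashed line of equal differences on the left, and Aqp5 is the lowest point on the right, at -3.65 and -4.06.

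The genes most like each of the 9 over the 16 cultures are given as a description, by Pearson's r of log2 CPM. The cultures fall into 4 groups, so these values follow the group differences. For Aqp1 they were Ces2c (0.985), H2afv (0.982) and Smoc2 (0.974), and for Slc12a2 Ces2c (0.978), Aldh1b1 (0.973) and Prps2 (0.97). For Clca4b they were Klf3 (0.972), Ctsc (0.969) and the pseudogene Gpx2-ps1 (0.969), and for Slc9a3 Cd38 (0.966) and Tbc1d2b (0.965). For Clca4a they were Krt23 (0.972), Slc28a2 (0.969) and Bmp8b (0.967), and for Clca3b Hnrnpab (0.966), Eif3b (0.963) and Hnrnpm (0.961). For Slc4a4 they were Tmem237 (0.983), Sult1c2 (0.981) and Chmp4c (0.976), for Slc26a3 Anp32e (0.972), Arhgap11a (0.946) and Mad1l1 (0.944), and for Cftr mt-Nd5 (0.937), Cul9 (0.935) and Me2 (0.93).

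Promoter windows from RefSeq (GRCm38.p6) were searched for 7 of the 9 genes. Slc12a2, on chromosome 18, was left out before the search, and Clca4a is not among the 7. None of their 8 windows of 250 bases before a start held the letters TTCNNNGAA on either strand, the core to which STAT factors bind. Of 32851 such windows over all genes, 7.0% held it.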

How the data were processed

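RNA was sequenced from 16 cultures of mouse small intestinal organoids. The labels name an Illumina TruSeq RNA kit and the study's methods a stranded one, so the library type is not settled. The deposited values are counts of reads per gene, made by the authors with cutadapt, TopHat2 against mm10 (GRCm38) and HTSeq; the strand setting and annotation release are not given in the sources used here. Of 49585 genes, 49326 (99.5%) matched GENCODE M21 by identifier without version, which gave symbols, coordinates and exon lengths. The 5 summary lines of HTSeq were left out of the fits. As shares of all deposited counts with these lines included, 36.3 to 38.3% fell on genes and 38.02 to 40.08% on no feature. This lowers the depth behind each value to a median of 3499276 counts.

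Counts were fitted with edgeR 4.0.16 in R 4.3.3 (filterByExpr, TMM factors, quasi-likelihood test with 1 mean per group, Benjamini-Hochberg adjustment over 12559 genes, threshold 0.01). The common biological coefficient of variation was 0.115. On simulated counts with 200 genes changed by 1 on the log2 scale in the fl/fl IL-22 comparison, 67.2% of the 198 tested ones were recovered. Of the 12352 genes run, the changed ones included, 0 unchanged genes were called. The simulated counts held no difference between lines, so they do not show how the fit behaves with lines nested in genotype. DESeq2 1.42.0, limma 3.58.1 (voom with the line correlation), other filters and factors, thinning, summed lines, and leaving out each culture or line were alternatives. Transcript sequences were compared with Biopython 1.88.

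The numbers in the labels tie treated and untreated cultures to the same organoid line. Deviations from group means correlated at 0.26 to 0.44 within fl/fl lines and 0.06 to 0.32 within ΔIEC lines, and at -0.43 to -0.22 and -0.35 to -0.08 between lines. Such deviations cancel out within a group, so the negative values between lines follow from the positive ones within lines. The paired fit used the line as a replicate block.

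The 9 genes, the gene lists and the tests were chosen with earlier results of these data known. All measured CLCA genes and aquaporins were named, and in each other list up to 2 genes per direction and comparison with the smallest p past the threshold. Some genes that these rules select are not reported here.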

Additional observations from a re-analysis of the deposited data

Results flagged for a closer look

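In IL-22-treated fl/fl organoids, replicate 1 had 151 CPM of Slc9a3 while the other 3 cultures lay within 185 to 185 CPM. Its gap to the nearest of them was above Dixon's critical value for 4 samples, the only such value among 36 groups examined, where chance gives about 1 in 20.

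Clca3b moved in opposite directions in the 2 fl/fl organoid lines. The log2 ratio of IL-22-treated to untreated mean CPM was 1.02 in the first and -0.26 in the second line, and the difference had an adjusted p of 1.17e-06 (edgeR quasi-likelihood test over 12559 genes).

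The genotype difference of Clca4b changed sign with treatment, from 0.39 on the log2 scale in untreated to -0.39 in IL-22-treated cultures, with all ΔIEC cultures above all fl/fl cultures in the first case and below them in the second. The test of this difference, -0.78 (SE 0.14) on the log2 scale, missed the threshold in the edgeR fit and passed it with the organoid line as a term. It passed in 4 of 29 alternative fits, and in none of the 20 that left out a culture or a line. Clca4b was chosen with these group differences known.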

How the results depend on the processing

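Of the genes in the 10 transport lists, 20 passed for IL-22 in fl/fl, 22 for IL-22 in ΔIEC, 16 for the genotype untreated, 23 for the genotype with IL-22 and 0 for the interaction. Summing the cultures of a line gave 7, 9, 0, 2 and 0, with 2 sums against 2. For the alternative fits in this paragraph, the share of all tested genes that passed was not counted. With the organoid line as a replicate block the counts were 32, 31 and 3 for the IL-22 comparisons and the interaction, and the block moved the calls of Slc4a4, Slc26a3 and Cftr for IL-22 and of Clca4a, Clca4b and Slc4a4 for the interaction, and of no other of the 9 genes. The interaction count was 1 with DESeq2, 1 with limma-voom and 2 with no filter on low counts. Leaving out a culture or a line in turn gave 13 to 21, 10 to 28, 7 to 21, 16 to 24 and 0 to 1. The lowest count for IL-22 in fl/fl came without the second fl/fl line (13), and those for IL-22 in ΔIEC (10) and the genotype untreated (7) without the first ΔIEC line. Other omissions that moved a count by over 1.5 times were, for IL-22 in ΔIEC, treated ΔIEC replicate 4 (14) and the second ΔIEC line (11), and for the genotype untreated, untreated fl/fl replicate 2 (9), untreated ΔIEC replicate 1 (9), the first fl/fl line (8) and the second ΔIEC line (10).

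Some values of the 9 genes changed sign when a culture or line was left out. They ran from -0.23 to 1.02 for the IL-22 difference of Clca3b in fl/fl, from -0.27 to 0.04 in ΔIEC and from -1.13 to 0.12 for its interaction, where the fl/fl lines set the ends. For Clca4a they ran from -0.46 to 0.69 for IL-22 in ΔIEC and from -0.92 to 0.21 for the genotype untreated. For Slc12a2 they ran from -0.08 to 0.09 for the genotype with IL-22 and from -0.13 to 0.07 for the interaction, and for Slc9a3 from -0.17 to 0.29 for the interaction. Apart from these, no result of the 9 genes changed sign under any alternative. The causes were not tested. Genes under the filter, such as the 41 untested list genes, are limited by depth.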
